A study of Homo sapiens with 6 samples.

Results

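LOX, P4HA1, PGK1 and GAPDH are 4 of the 1998 genes that the authors listed as changed in HepG2 cells after an siRNA against H19. They were taken by name from the authors' deposited table of called genes to set a pair of collagen-modifying targets of the hypoxia-inducible factors (HIF) beside a pair of glycolytic enzymes that are often used as references for expression measurements. They were thus selected on the fold change and adjusted p of that table, in which every row has an adjusted p under 0.05. HepG2, grown from a human liver cancer, makes many of the proteins that hepatocytes secrete, and H19 is an imprinted long noncoding RNA. The cells were transfected with the H19 siRNA (siH19, 3 libraries) or with a control siRNA (siCon, 3 libraries), both in the same HepG2 line from ATCC, and RNA was taken after 48 h and sequenced as total RNA without ribosomal RNA. The labels name no low-oxygen or other treatment, only 1 cell line was used, and separate cultures for the 3 libraries of a group are not mentioned. The study set out to find genes that H19 regulates in liver cells.

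HIF proteins are transcription factors that prolyl hydroxylases of the EGLN family mark for destruction when oxygen is present. Without oxygen they build up, pair with ARNT and bind short hypoxia response elements near their target genes. Targets include most enzymes of glycolysis, which makes ATP without oxygen, and enzymes that shape collagen. P4HA1 is the catalytic subunit of collagen prolyl 4-hydroxylase, which makes the hydroxyproline that holds the collagen triple helix together. LOX is the secreted lysyl oxidase that starts the crosslinking of collagen and elastin. GAPDH and PGK1 catalyse consecutive steps of glycolysis, and PGK1 makes the first ATP of its payoff phase.

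The promoters of the 4 genes are shown because the HIF core motif is the feature that the group shares by reputation, and the deposited values had no part in finding it. The windows hold 250 bases before and 50 bases after a start, read in the direction of the gene. That start is the most upstream one held for the gene in a set of RefSeq promoters on build GRCh38.p14. The set may lack other starts of a gene, further upstream ones included. LOX lies on the minus strand at chr5:122078210-122078509, P4HA1 on the minus strand at chr10:73096817-73097116, PGK1 on the plus strand at chrX:78103998-78104297 and GAPDH on the plus strand at chr12:6535014-6535313. Capitals mark the core motifs ACGTG and GCGTG on either strand, which appear as CACGT and CACGC when they lie on the other strand.
LOX: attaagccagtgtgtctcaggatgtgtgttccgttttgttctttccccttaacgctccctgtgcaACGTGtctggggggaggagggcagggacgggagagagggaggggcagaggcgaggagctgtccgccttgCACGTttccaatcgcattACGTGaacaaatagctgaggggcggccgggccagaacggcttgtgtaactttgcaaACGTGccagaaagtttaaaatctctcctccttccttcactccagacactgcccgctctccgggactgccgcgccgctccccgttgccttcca
P4HA1: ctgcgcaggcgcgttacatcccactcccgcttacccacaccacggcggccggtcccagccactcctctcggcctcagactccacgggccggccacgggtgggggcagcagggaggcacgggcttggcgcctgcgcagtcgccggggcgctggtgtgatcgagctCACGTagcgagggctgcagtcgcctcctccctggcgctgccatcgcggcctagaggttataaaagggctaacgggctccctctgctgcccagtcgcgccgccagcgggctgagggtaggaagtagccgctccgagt
PGK1: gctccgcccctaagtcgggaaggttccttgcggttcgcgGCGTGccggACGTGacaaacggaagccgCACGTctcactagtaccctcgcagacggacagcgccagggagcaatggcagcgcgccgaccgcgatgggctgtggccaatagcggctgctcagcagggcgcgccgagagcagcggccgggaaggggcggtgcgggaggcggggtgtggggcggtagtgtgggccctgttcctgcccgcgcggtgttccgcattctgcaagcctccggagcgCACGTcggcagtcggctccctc
GAPDH: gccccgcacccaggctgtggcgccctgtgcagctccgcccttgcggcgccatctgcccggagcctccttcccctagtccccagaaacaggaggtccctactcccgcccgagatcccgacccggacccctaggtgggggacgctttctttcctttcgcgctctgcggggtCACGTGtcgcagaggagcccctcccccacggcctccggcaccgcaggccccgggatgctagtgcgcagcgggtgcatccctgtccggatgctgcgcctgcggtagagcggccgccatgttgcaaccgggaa
The LOX window held 4 separate sites, all of the form ACGTG, and the most upstream of them began 185 bases before the start. The PGK1 window also held 4, of which 3 were ACGTG and 1 was GCGTG, and 3 of the 4 began 211, 202 and 183 bases before the start. P4HA1 and GAPDH held 1 each, 86 and 81 bases before the start, and in GAPDH the forward and reverse matches overlap in the palindrome CACGTG and were counted once. At least 4 sites were found in 2.74% of the 27305 promoters of the same length, and at least 1 in 48.4%. Counting ACGTG alone, at least 4 sites were found in 0.132% of promoters, at least 3 in 0.502% and at least 1 in 21.6%. Among the 1622 listed genes matched to a promoter, 61.2% held at least 1 site and 25.7% at least 1 ACGTG. The GC content of the window was 58.0% for LOX, 70.3% for P4HA1, and 70.7% for both PGK1 and GAPDH. The median was 58.3% over all promoters and 65.7% over those of the listed genes. LOX and PGK1, with 4 sites each, had different fold changes, and P4HA1 and GAPDH, with 1 site each, also had different fold changes, as given below. A link between the number of sites and the fold changes was not tested. LOX has 3 starts in that set, and the windows of the other 2 held 2 sites each. P4HA1, PGK1 and GAPDH have 1 start each in it, which need not be the main start of the gene. A match is a run of letters and not a shown binding site.

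All 4 genes were lower in siH19 cells, the collagen-modifying pair by 1.84-fold and the glycolytic pair by 1.17-fold to 1.27-fold. Of all listed genes 55.3% were lower, and since these 4 were taken from that contrast their shared direction is a description only. The authors' deposited table gives 1 combined value per group, so levels by library cannot be shown and no overlap between the groups' libraries can be stated. In the bulk RNA of a single line, fewer cells that express a gene and less RNA per cell cannot be told apart. H19's own transcript was not analysed here, and the group name siH19 rests on the label alone.

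LOX stood at a normalized count of 345 in siH19 cells, against 635 in siCon cells, in the authors' deposited table. Its log2 fold change was -0.88 ± 0.15 (SE), with an adjusted p written as 0, which means under the smallest value above 0 in the authors' deposited table, 1e-06. P4HA1 stood at a normalized count of 2665 in siH19 cells, against 4905 in siCon cells, and its log2 fold change in the authors' deposited table was -0.88 ± 0.10 (SE), also with an adjusted p written as 0. Both transcripts were thus left at 54.3% of their siCon level, although P4HA1 had 13.7 times the level of LOX per exon length in each group. One SE either side spans 49% to 60.3% for LOX and 50.7% to 58.2% for P4HA1 in the authors' deposited table. A larger absolute change was listed for 141 genes, or 7.06% of the table, and a larger fall for 78 of the 1105 lower genes.

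PGK1 stood at a normalized count of 6339 in siH19 cells, against 8079 in siCon cells, in the authors' deposited table. Its log2 fold change there was -0.35 ± 0.09 (SE), with the authors' deposited table giving an adjusted p of 0.00192. GAPDH stood at a normalized count of 36107 in siH19 cells, against 42348 in siCon cells. Its log2 fold change in the authors' deposited table was -0.23 ± 0.08 (SE), with an adjusted p of 0.0268. Relative to PGK1 its sign turned, at 0.12 with an SE of 0.12 if the errors are taken as independent. GAPDH is the only one of the 4 that a threshold of 0.01 would not call, where 64.8% of all listed genes were still called. PGK1 was left at 78.5% and GAPDH at 85.3% of the siCon level. GAPDH is near the edge of the list: 97.2% of listed genes had a larger absolute change, only 16.6% had a larger adjusted p, and the smallest absolute log2 fold change in the table was 0.19. In PGK1's case 71.4% of listed genes had a larger absolute change.

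**Figure D1:**
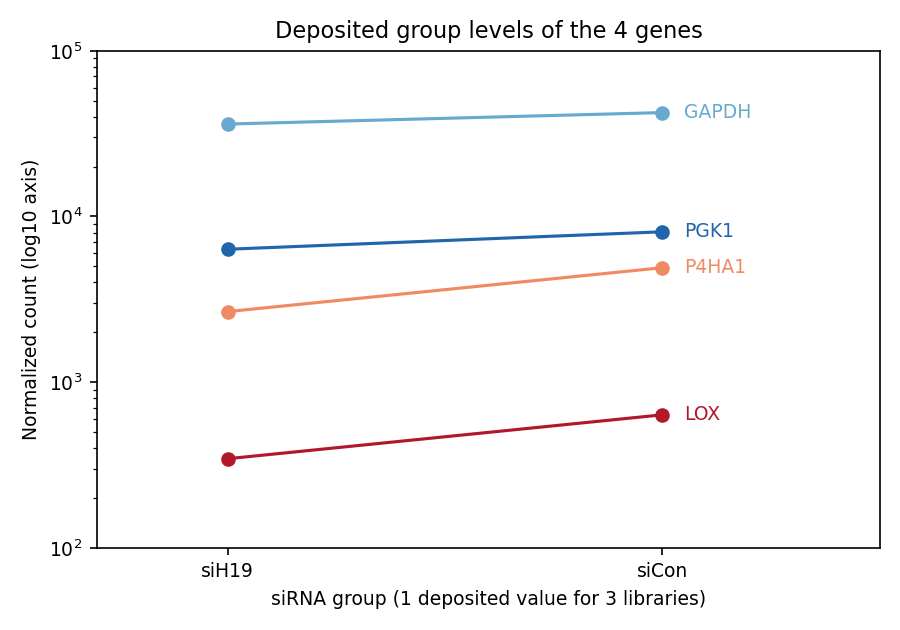
Normalized count of each gene on a log10 axis in siH19 (left) and siCon (right), 1 deposited value per group for 3 libraries, with no error per group given. The lines of LOX and P4HA1 climb towards siCon in parallel (LOX 345 in siH19 and 635 in siCon, P4HA1 2665 and 4905), and those of PGK1 and GAPDH are flatter.

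The fold and the amount of transcript did not rank the genes alike. Per length, the level in siH19 cells was 66.6 normalized counts per kb of exon for LOX, 911 for P4HA1, 1272 for PGK1 and 16235 for GAPDH. The same levels in siCon cells were 123 per kb for LOX, 1676 for P4HA1, 1621 for PGK1 and 19041 for GAPDH. LOX was lowest and GAPDH highest in both groups, while P4HA1 had 0.716 times the level of PGK1 per length in siH19 cells, against 1.03 times in siCon cells. With no error per group, the order of P4HA1 and PGK1 in siCon cells cannot be told from equal levels. GAPDH exceeded LOX 244-fold per length in siH19 cells and 155-fold in siCon cells. The drop per kb was 2806 normalized counts for GAPDH, which had the smallest fold, 765 for P4HA1, 349 for PGK1 and 55.9 for LOX.

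The collagen-modifying pair fell further than the glycolytic pair in every pairing, by differences in log2 fold change between -0.53 and -0.65. The mean log2 fold change was -0.88 for LOX and P4HA1 and -0.29 for PGK1 and GAPDH, a difference of -0.59 with an SE of 0.11 if the errors are taken as independent, or 1.51-fold. P4HA1 against GAPDH gave a difference of -0.65 with an SE of 0.13, and LOX against PGK1, the pair with the smallest difference for its error, gave -0.53 with an SE of 0.17. Within the pairs, LOX and P4HA1 differed by 0.00 with an SE of 0.18, and PGK1 and GAPDH by -0.12 with an SE of 0.12, about 1 SE. These SEs combine the authors' deposited ones. All genes were measured in the same libraries, so their errors may not be independent, and no test was made because the contrast chose the genes.

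Listed genes of a similar level show how common changes of such a size, in either direction, were among called genes. Within a factor of 2 of LOX's mean count there were 764 listed genes, LOX included, of which 54.1% were lower, with a median absolute log2 fold change of 0.43, and 44 changed more than LOX. Around P4HA1 there were 333, of which 65.2% were lower, with a median absolute log2 fold change of 0.35, and only 10 changed more than P4HA1. Around PGK1 there were 140, 67.1% of them lower, with a median of 0.33, and 59 changed more than PGK1. Around GAPDH there were 15, 80.0% of them lower, with a median of 0.33, and 13 changed more than GAPDH. Most listed genes were thus lower around each of the 4, and the share around GAPDH rests on 15 genes.

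**Figure D2:**
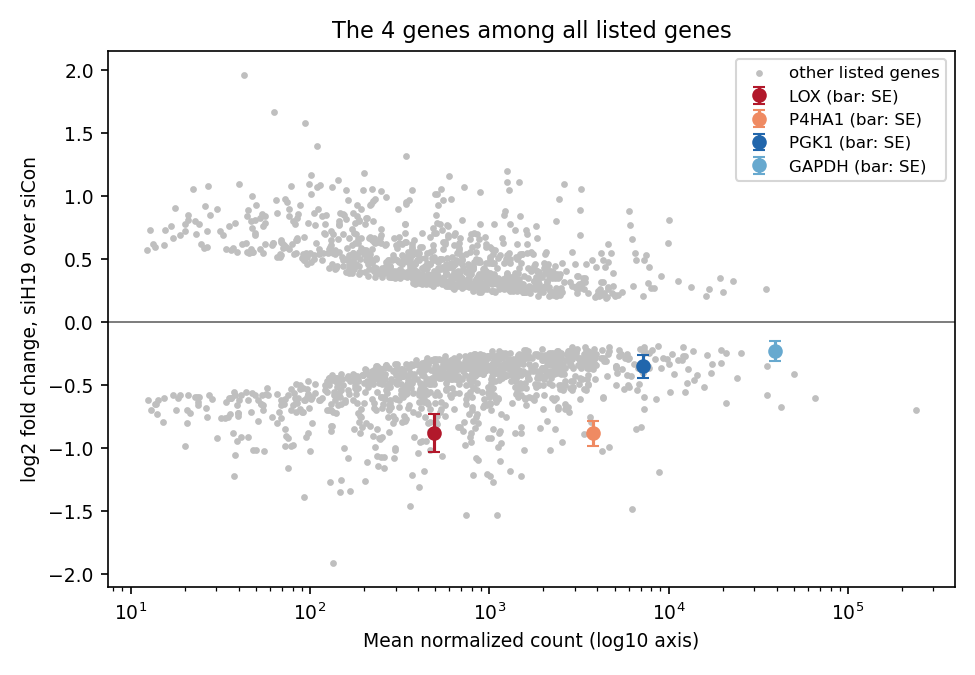
log2 fold change (siH19 over siCon) against mean normalized count (log10 axis) for all 1998 listed genes in grey, with the 4 genes in colour and bars for the authors' SE. LOX and P4HA1 lie deep among the lower genes at -0.88, while PGK1 and GAPDH lie close to the empty band around 0 that the authors' threshold leaves.

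The precision of the 4 values differs. LOX's SE of 0.15 in the authors' deposited table was larger than that of 727 of the 764 listed genes at its level, where the median SE was 0.11, and smaller than that of 14. Only called genes are compared, and a gene with a larger SE needs a larger change to be called. The place of LOX's SE among all genes of its level is therefore unknown. Counting error alone, with normalized counts read as reads in each of 3 libraries per group, would give an SE of 0.0557 for LOX, so the deposited SE was 2.69 times as large. For GAPDH the deposited SE was 13.4 times the counting error of 0.00597. P4HA1's deposited SE was 4.99 times and PGK1's 6.44 times the counting error. Counting error shrinks as counts rise, so a larger ratio does not mean a less precise value. GAPDH's deposited SE of 0.08 was the smallest of the 4 and equalled the median SE of listed genes at its level.

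Reads may be shared with other copies or neighbours for some of the 4. GENCODE release 29 names 62 pseudogenes after GAPDH and 1 after PGK1, and none after LOX or P4HA1. How reads with several placements were counted is not given in the sources used here, and of the 4 GAPDH has by far the most such copies. PGK1 overlaps ATP7A on its own strand and PGAM4, a copy of a glycolytic mutase gene, on the other. LOX overlaps SRFBP1 on the opposite strand, and P4HA1 and GAPDH each overlap an antisense RNA. The library kit keeps the strand, but its use in counting is not given in the sources used here. None of these neighbours was among the listed genes.

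Beyond LOX and P4HA1, 3 more genes of a list of 32 for collagen modification were listed, and they moved in both directions. Of these 5 listed genes 3 were lower and 2 higher, with a median log2 fold change of -0.43, beside 55.3% lower and a median of -0.27 over the whole table. Both other listed lysyl oxidases rose where LOX fell. LOXL4 had a normalized count of 936 in siH19 cells and 744 in siCon cells, with a log2 fold change of 0.33 ± 0.10 (SE) and an adjusted p of 0.0121 in the authors' deposited table. LOXL3 had a normalized count of 25.3 in siH19 cells and 14.7 in siCon cells, with a log2 fold change of 0.78 ± 0.21 (SE) and an adjusted p of 0.00327 in the authors' deposited table. TMEM38B, a cation channel of the ER that is mutated in a brittle bone disease, fell by 0.43 on the log2 scale in the authors' deposited table. The other 27 genes of the list include P4HA2, P4HB and the lysyl hydroxylases PLOD1, PLOD2 and PLOD3. They were not among the listed genes, so a change or its absence cannot be stated for them. How many genes the authors tested is unknown. For this list and those below, the number listed thus has no share over all tested genes beside it.

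Of 44 HIF target genes outside collagen and glycolysis, 9 were listed, 8 lower and 1 higher (7 lower relative to PGK1), with a median log2 fold change of -0.58, beside 55.3% lower in the whole table. The lower HIF targets were led by IGFBP1, a secreted binding protein of the insulin-like growth factors. It stood at 5442 normalized counts in siH19 cells and 12331 in siCon cells, with a log2 fold change of -1.19 ± 0.12 (SE) in the authors' deposited table. BNIP3, a mitochondrial protein that promotes mitophagy in hypoxia, had 1846 in siH19 cells and 2978 in siCon cells, with -0.69 ± 0.10 (SE) in the authors' deposited table. ANKRD37 (-0.73), IGFBP3 (-0.72), the nuclear receptor RORA (-0.58), the transcriptional repressors NFIL3 (-0.47) and BHLHE40 (-0.33), and ERO1A (-0.39), the oxidase of the ER that helps disulfide bonds form, were the others that fell in the authors' deposited table. EDN1, which encodes the vasoconstrictor endothelin-1, rose, with 1193 normalized counts in siH19 cells and 917 in siCon cells and a log2 fold change of 0.38 ± 0.12 (SE) in the authors' deposited table. IGFBP1, IGFBP3, EDN1 and NFIL3 respond to many signals besides oxygen. IGFBP1 was the only one of the 9 to fall by more than LOX and P4HA1.

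Of 20 genes of the oxygen-sensing machinery itself, 3 were listed, 2 lower and 1 higher (1 lower relative to PGK1). This stands beside 55.3% lower in the whole table (39.6% relative to PGK1). EGLN1, the main HIF prolyl hydroxylase and itself a HIF target, had 1017 normalized counts in siH19 cells and 1252 in siCon cells, with a log2 fold change of -0.29 ± 0.08 (SE) and an adjusted p of 0.00486 in the authors' deposited table. CITED2, which competes with HIF for its coactivators, fell by 0.45 on the log2 scale in the authors' deposited table. ARNT2, a relative of the HIF partner ARNT, had 30.3 in siH19 cells and 14.5 in siCon cells, with 1.06 ± 0.22 (SE) in the authors' deposited table. HIF1A, EPAS1, ARNT and VHL were not among the listed genes, so a change or its absence cannot be stated for them.

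Among 26 glycolytic enzymes, 5 were listed, 4 lower and 1 higher (1 lower relative to PGK1), with a median log2 fold change of -0.24. Over all listed genes 55.3% were lower (39.6% relative to PGK1), with a median of -0.27. LDHA, which turns pyruvate into lactate, had 23170 normalized counts in siH19 cells and 27364 in siCon cells, with a log2 fold change of -0.24 ± 0.08 (SE) in the authors' deposited table, close to GAPDH's. PKLR, the liver form of pyruvate kinase, fell nearly as far as the collagen-modifying pair, with 125 in siH19 cells and 228 in siCon cells and -0.85 ± 0.15 (SE) in the authors' deposited table. HK1, a hexokinase, rose, with 76.6 in siH19 cells and 53.4 in siCon cells and 0.52 ± 0.19 (SE) in the authors' deposited table. PKLR and HK1 had mean normalized counts of 176 and 65.1, and the 3 enzymes with far higher counts, PGK1, LDHA and GAPDH, were within 0.12 of each other on the log2 scale.

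Genes that feed or steer glycolysis were listed for 5 of 17, 4 of them lower (3 relative to PGK1), with a median log2 fold change of -0.74, beside 55.3% lower and a median of -0.27 over the whole table. The glucose transporter of hepatocytes, SLC2A2 (-1.22), the glucose-responsive transcription factor MLXIPL (-0.94), and GCKR, the regulator of glucokinase (-0.74), fell by more than PGK1 in the authors' deposited table. PDK1, a HIF target that keeps pyruvate out of mitochondria, had 1038 in siH19 cells and 1243 in siCon cells, with -0.25 ± 0.09 (SE) in the authors' deposited table. SLC2A3, a high-affinity glucose transporter that HIF also targets, rose, with 21619 in siH19 cells and 18433 in siCon cells and 0.24 ± 0.08 (SE) in the authors' deposited table.

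Of 8 hepatocyte markers 7 were listed, with mean normalized counts from 793 to 240657. The share listed among all tested genes of such counts is unknown, so 7 of 8 is a description only. All 7 were lower (5 relative to PGK1), beside 55.3% of the whole table (39.6% relative to PGK1). ALB stood at 32768 normalized counts in siH19 cells and 51776 in siCon cells in the authors' deposited table. The 7 log2 fold changes ran from -0.88 to -0.33 with a median of -0.60. LOX, P4HA1 and PGK1 lie within that range, and GAPDH at -0.23 lies outside it. The part of this shared fall in the values of the 4 genes was not tested.

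**Figure D3:**
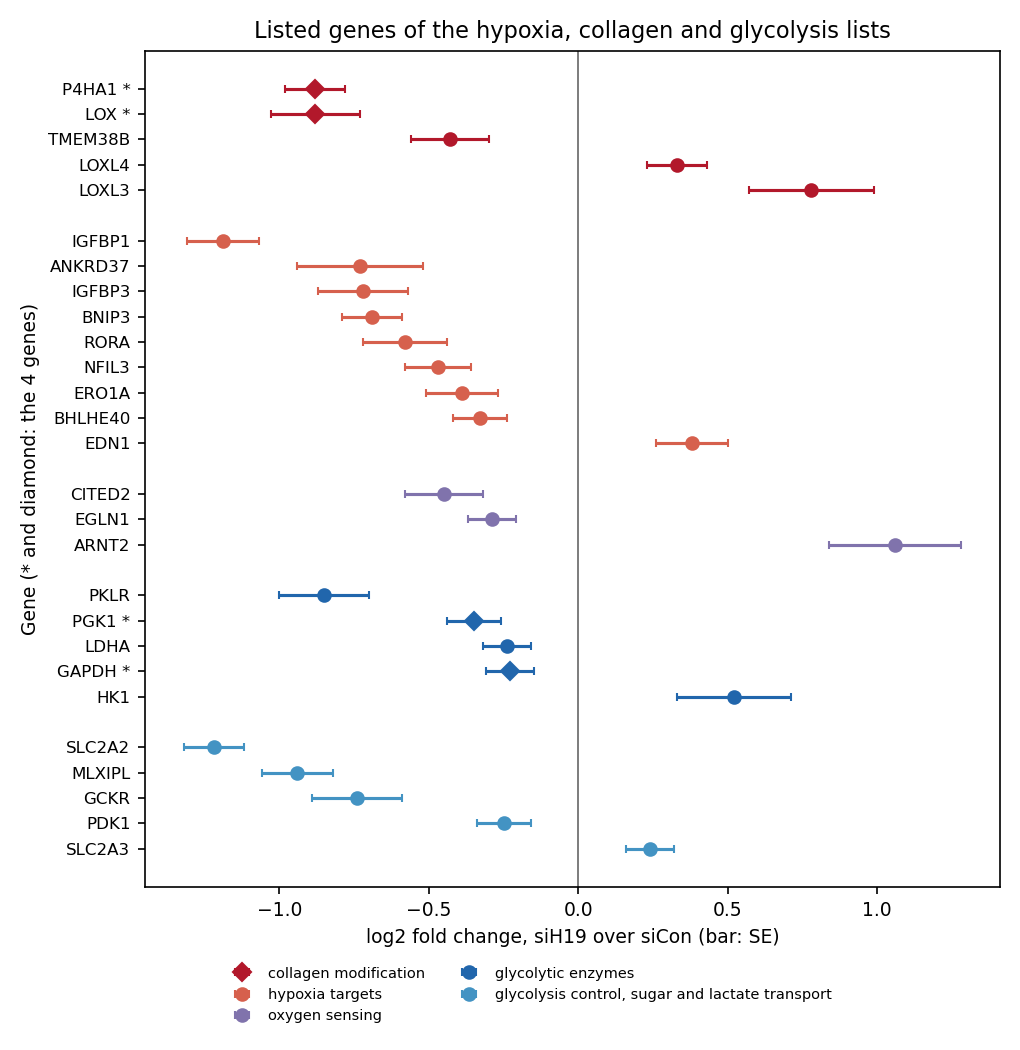
log2 fold change (siH19 over siCon) with the authors' SE for the listed genes of 5 lists, with diamonds and stars for the 4 genes. P4HA1 and LOX stand apart from the higher LOXL4 and LOXL3. In the list of HIF targets outside collagen and glycolysis 8 of 9 lie left of 0, beside 55.3% of all listed genes. HIF targets placed in other lists lie on both sides, such as PDK1 on the left and SLC2A3 on the right.

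GAPDH and PGK1 are common denominators in expression measurements, so the same changes were also read relative to each. Relative to GAPDH, LOX and P4HA1 both stood at 63.7% of their siCon level, in place of 54.3%, and PGK1 at 92.0%. Relative to PGK1, LOX and P4HA1 stood at 69.3%, and GAPDH at 109%, a log2 difference of 0.12 with an SE of 0.12. Subtracting GAPDH's change left 1074 listed genes lower and 912 higher, or 53.8% lower. Subtracting PGK1's change left 791 lower and 1181 higher, or 39.6% lower, so the direction of 288 genes turned round. For GAPDH the corresponding number was 19. EGLN1, BHLHE40, PDK1, LDHA, GAPDH and RPL13A were among the genes that turned to higher relative to PGK1. Against the rising reference genes, SLC2A3 and LOXL4 were among those that turned to lower relative to both TUBB and CASC3, and EDN1 relative to CASC3.

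In all, 6 of 39 genes often used as references were listed, 4 lower and 2 higher. The lower ones were PGK1, GAPDH, LDHA and the ribosomal protein gene RPL13A (-0.24 ± 0.09 in the authors' deposited table). The higher ones were the tubulin TUBB (0.35 ± 0.07) and CASC3, a component of the exon junction complex (0.40 ± 0.08), in the authors' deposited table. Relative to TUBB 66.8% of the listed genes were lower, and relative to CASC3 72.5%, against 55.3% as deposited. LOX and P4HA1 stayed lower relative to each of the 6, from 41.2% of the siCon level relative to CASC3 to 69.3% relative to PGK1. That direction follows from the subtraction, since both fell by more than any of the 6. All 6 were called as changed. The other 33 genes of the list were not among the listed genes, so a change or its absence cannot be stated for them.

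**Figure D4:**
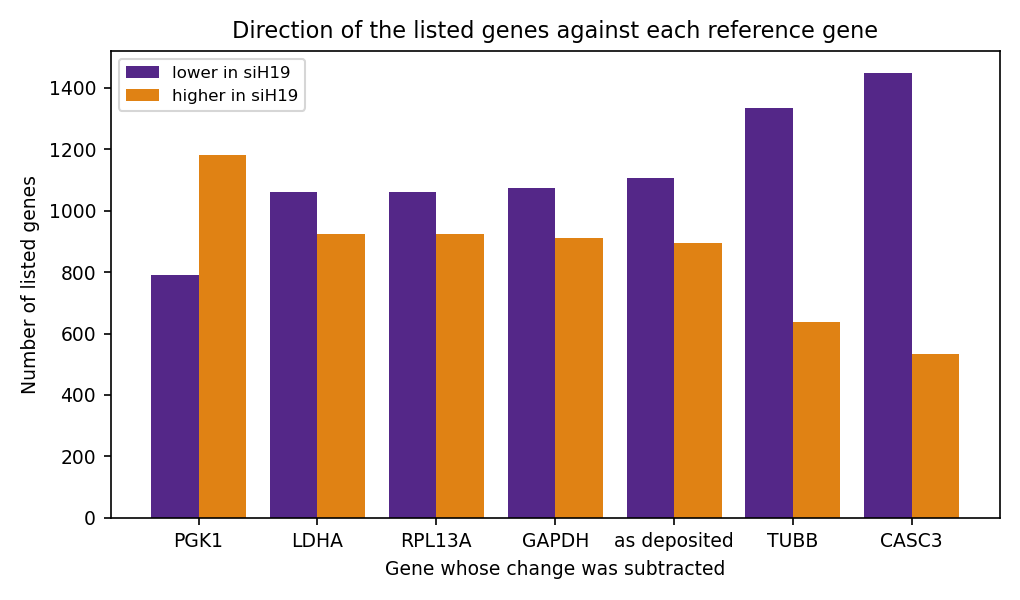
Number of listed genes lower (purple) and higher (orange) in siH19 when the change of 1 reference gene is subtracted from all, beside the values as deposited. Against PGK1 the higher genes outnumber the lower ones, 1181 to 791, and against CASC3 the lower ones reach 1448.

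The genes with the most like change at a like level, by the smallest difference in log2 fold change within a factor of 2 in mean count, were found from 2 group values only. For LOX, among 763 candidates, these were TTR, the plasma carrier transthyretin (-0.88), the immediate early factor EGR1 (-0.87) and SLC9B2 (-0.86) in the authors' deposited table. P4HA1's, among 332, were the mitochondrial superoxide dismutase SOD2 (-0.89), DDAH1, which breaks down methylated arginines (-0.85), and PEBP1 (-0.85) in the authors' deposited table. PGK1's, among 139, were KTN1, the kinase MAPK6 and the chromatin remodeller SMARCA1, all at -0.35 in the authors' deposited table. For GAPDH, among 14, these were LDHA (-0.24), HDLBP (-0.24) and the COPII coat gene SEC23A (-0.22) in the authors' deposited table.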

How the data were processed

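RNA from 6 HepG2 libraries (3 siH19, 3 siCon) was compared in 1 deposited table. The build hg19 and the programs DESeq2 1.0.0, STAR 2.5.0a and Cufflinks 2.2.1 are named, per the submitters' processing notes, without role or order. Per the file headers, the authors deposited log2 counts per group, a log2 fold change with its SE, and a q value (adjusted p-value). The authors also deposited a mean count per gene, a normalized signal and not whole reads. The largest q value was 0.0498, so the table holds called genes only. The number of genes tested, library totals and depth are unknown. The deposited fold change equalled siH19 minus siCon within 0.01.

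Linear counts, differences, list counts and subtraction of a reference gene were computed with Python 3.11.15 and pandas 2.3.3. Of these steps, the count of directions, with and without a subtracted shift, was checked on simulated data, as was the motif search. Single genes were not tested again. The 4 genes, the gene lists and the comparisons were chosen with earlier results of these data known. The genes named are the 4, listed members of the fixed lists, and the 3 most like genes of each of the 4. Lengths and overlaps came from GENCODE release 29 (GRCh38) and promoters from RefSeq (GRCh38.p14), which differ from the build in the notes. 1622 of the 1998 symbols (81.2%) matched a promoter, the 4 genes among them. The authors' adjusted p-values reflect the spread between libraries that may be technical repeats. The alternatives were stricter thresholds, other reference scales, another length and another motif choice.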

Additional observations from a re-analysis of the deposited data

How the results depend on the processing

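The 4 fold changes came out as deposited, within rounding, from the difference of the group values. LOX and P4HA1 remained lower on each scale, each at -0.65 relative to GAPDH, -0.53 relative to PGK1, -0.61 relative to the median of all listed genes and -0.65 relative to the median of the listed reference genes. Their direction on these scales was fixed in advance, since both fell by more than each value subtracted. PGK1 stood at -0.12, -0.08 and -0.11 relative to GAPDH and to those medians. GAPDH stood at 0.12 relative to PGK1, with an SE of 0.12 if the errors are taken as independent. It stood at 0.04 relative to the median of all listed genes, below its own SE of 0.08. Relative to the median of the reference genes, a list that includes GAPDH, it stood at 0.00. At a threshold of 0.01 its -0.23 was no longer called (adjusted p 0.0268, from the submitters' fit). By construction the stricter filters leave fewer genes. At 0.01, the lower genes numbered 732 of 1294 in the table, 2 of 2 glycolytic enzymes and 1 of 3 reference genes. At mean counts at or above the median they numbered 596 of 999 in the table, 1 of 1 in oxygen sensing, 5 of 6 HIF targets, 1 of 2 in collagen modification and 2 of 3 in glycolysis control. With at least a 1.5-fold change they numbered 311 of 563 in the table, 0 of 1 in oxygen sensing, 4 of 4 HIF targets, 1 of 1 glycolytic enzymes and 4 of 4 hepatocyte markers. Relative to PGK1 they numbered 791 of 1998 in the table, 1 of 3 in oxygen sensing, 1 of 5 glycolytic enzymes and 0 of 6 reference genes. PGK1 belongs to both of the last lists and fell furthest of the reference genes, so 0 of 6 was fixed in advance. The difference between the pairs of genes ran from -0.65 to -0.53, and the motif counts with ACGTG alone were 4, 1, 3 and 1. Lengths from the longest protein-coding transcript, chosen after seeing the data, moved no level per kb by over 1.5 times. No paired analysis was possible because the table holds 1 value per group, and for the same reason no library could be left out. LOX has the largest SE of the 4, and library totals are unknown, so depth cannot be set beside it.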
